A study of Mus musculus with 28 samples.

Results

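The genes described here are 53 genes of DNA replication and mitosis, taken as a named list: factors that license and open replication origins, enzymes of the replication fork, enzymes that supply nucleotides, regulators of entry into S phase, and the kinases, checkpoint proteins and spindle proteins of mitosis. All probes annotated to these symbols were followed over the 28 arrays of a series on mouse endoderm. Of the 53 genes, 47 had a probe and 43 were detected well enough to be tested, among 9652 genes tested in all. Mki67, Aurkb, Gins1, Gins2, Ccnb1 and Rfc3 had no probe under these symbols, and the probes of Pola1, Ccnb2, Bub1 and Kif20a were not detected on every array of any group. RNA came from definitive endoderm, ectoderm and mesoderm of mouse embryos at E8.25 with 4 to 6 somites (3 arrays each) and from the endoderm of 6 organ domains at E11.5: esophagus, lung, stomach, liver and intestine (3 arrays each) and pancreas (4 arrays). Per the series text, organ domains of 10 to 12 embryos were pooled for a sample and the endoderm was isolated by flow cytometry. The sources used here name neither strain, genotype nor sorting markers, do not say how ectoderm and mesoderm were isolated, and name no treatment. The p-values measure the spread between these pooled samples.

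Before S phase, the origin recognition complex, Cdc6 and Cdt1 load the Mcm2 to Mcm7 helicase onto origins, and Gmnn (geminin) blocks Cdt1 from loading it again. Cyclins D and E with their kinases release E2f factors from Rb proteins, and E2f factors switch on many replication genes. The inhibitors Cdkn1a (p21) and Cdkn1b (p27) hold these kinases back. Mitotic genes are switched on later, and many of their promoters carry a cell cycle homology region (CHR). Transcripts of both classes are commonly read as a mark of dividing cells.

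Values are log2 intensities after background correction and quantile normalization, and a difference is a log2 fold change ± its standard error from one limma model of the 28 arrays. A gene was called at a Benjamini-Hochberg adjusted p under 0.05 over all 9652 genes, with no minimum fold. Values in a list follow the replicate numbers of the labels. Arrays detected from 7084 to 12867 probes each, the fewest on pancreas 3 and intestine 3. Any pair of arrays of a group correlated at 0.946 or more over the genes tested. The number of arrays limits the precision, and the organ comparisons share arrays. Nkx2-1 and Sftpc in lung, Trp63 and Krt15 in esophagus, Cdx2 and Isx in intestine, Ptf1a and Neurog3 in pancreas, and Afp and Hnf4a in liver were detected on every array of their group, some of them in other organs too. The stomach markers Sox2, Barx1, Gata4 and Foxq1 were detected on every stomach array. Their summed intensity was 953 to 1155 there and at least 2303 in esophagus. In the germ layers Sox17 was detected in endoderm and mesoderm, Foxa1 and Foxa2 in endoderm and ectoderm, Tcf15 and Foxc2 in mesoderm and ectoderm, and Sox1 in none. The ectoderm markers Sox2, Otx2, Pax6, En1 and Sox1 summed to 1896 to 2458 in ectoderm and 1443 to 2187 in endoderm. Alb was detected on 1 of the 3 liver arrays, and Pax6 and Tbx5 on no array of any group.

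One feature of the deposited intensities has to be stated first, and the sources used here name no cause for it. On 8 arrays no deposited intensity exceeded 20000: the 3 mesoderm arrays, the 3 liver arrays, lung 1 and stomach 1. A set of 7 members moved together over the arrays, taken by their correlation with Pcna, the sliding clamp of DNA polymerases. Besides Pcna it held Prim1, the catalytic primase subunit, Rfc4, a subunit of the clamp loader, Gmnn and Ccna2 (cyclin A2). It also held the checkpoint kinase Ttk and Ube2c, the ubiquitin-conjugating enzyme of the anaphase promoting complex. These 6 correlated with Pcna at 0.877 to 0.973 over the 28 arrays, against 0.524 for the next member. They were grouped after their values had been seen, and the arrays share tissue, class and normalization. Pcna read 10.26, 7.44 and 7.61 in lung and 9.91, 7.58 and 7.25 in stomach. In liver it read 9.44 and 9.34 on the first arrays, and liver 3 minus their mean was -1.14. Lung 1 and stomach 1 stood far above the other arrays of their own organs, and liver 3 stood below liver 1 and liver 2 although it belongs to the same class. Esophagus has no array in the class. Its organ mean was next after liver for Pcna, Prim1, Gmnn, Ccna2 and Ube2c and the highest for Ttk. For Rfc4 it ranked below lung, liver and stomach.

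**Figure D1:**
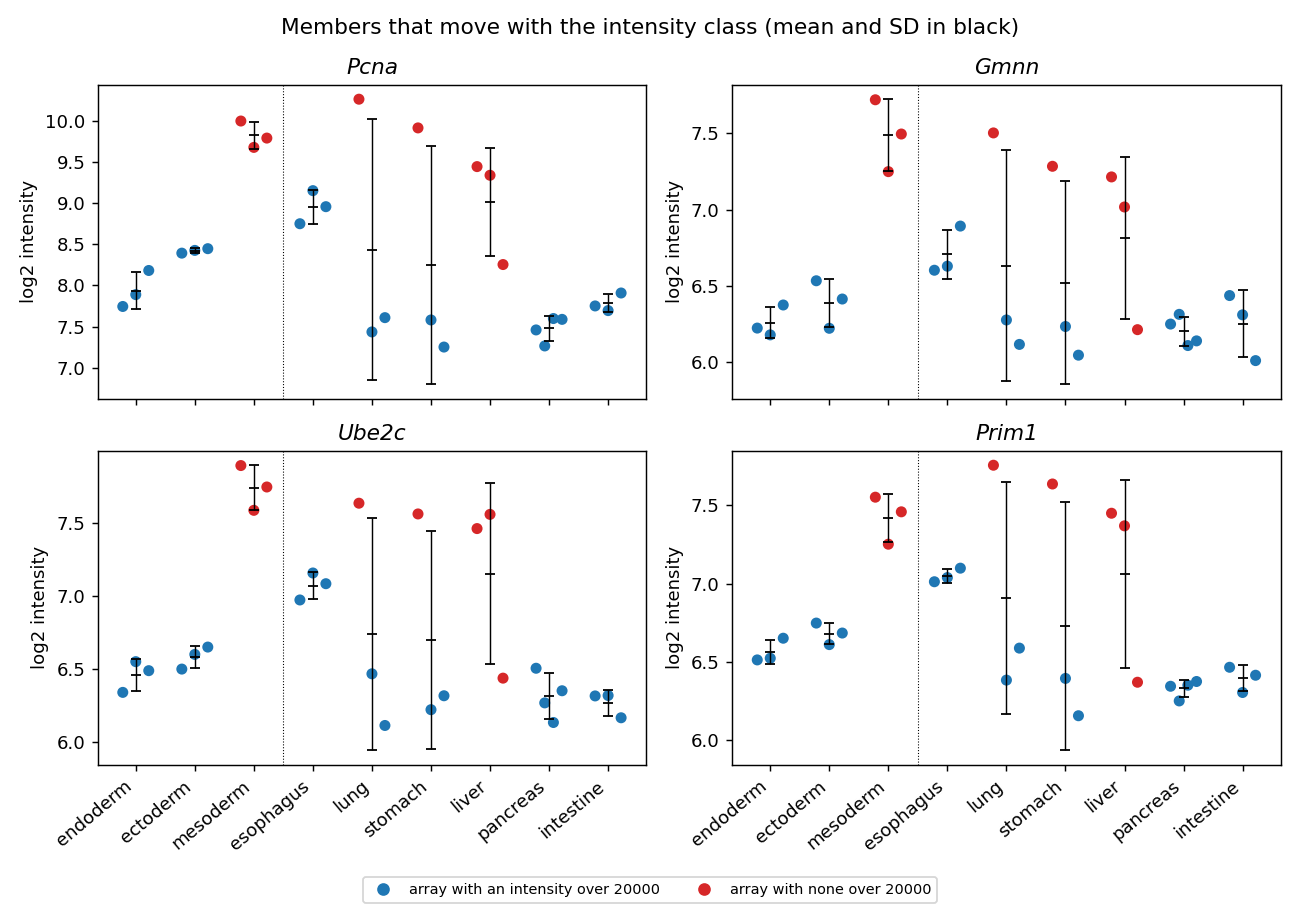
Log2 intensity of Pcna, Gmnn, Ube2c and Prim1 on each of the 28 arrays (points, in replicate order) by group, with group mean and SD in black; colour marks arrays with or without a deposited intensity over 20000. Lung 1 and stomach 1 lie with mesoderm and not with the other arrays of their organ, as for Pcna at 10.26 and 9.91.

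With the class as a term beside the group means, an estimate that rests on lung 1 and stomach 1 against the other arrays of those organs and was added after seeing the data, 9 members were higher on the class arrays (10.5% of all genes) and 2 were lower (7.4% of all genes). The fit treats lung 1 and stomach 1 as independent, though same-numbered lung and stomach arrays deviated together (correlations from 0.635 to 0.879). The standard errors and p-values of this term do not allow for that. Pcna was higher by 2.61 ± 0.22 (adjusted p = 7.07e-08), Prim1 by 1.32 ± 0.18, Ube2c by 1.32 ± 0.20, Ttk by 1.24 ± 0.15, Ccna2 by 1.23 ± 0.18, Gmnn by 1.22 ± 0.19 and Rfc4 by 0.66 ± 0.15. Cdc6 and Cdkn1a were also higher, by 0.44 and 0.62. Mcm3, a helicase subunit, and Birc5 (survivin, of the chromosomal passenger complex) were lower, at -1.19 ± 0.38 and -0.68 ± 0.20. Mesoderm and liver lie wholly in the class, so for them tissue and class cannot be told apart within the group, and calls that end with the class as a block are named as such.

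As a whole, the replication and mitosis members stood higher in the germ layers at E8.25 than in most organs at E11.5. For each array the median of the tested members' deviations from their means over all arrays was taken. Over the 20 replication members the group means of this median were 0.25 ± 0.04 (SD, n = 3) in endoderm, 0.42 ± 0.04 in ectoderm and 0.28 ± 0.15 in mesoderm. In the organs they were 0.07 ± 0.04 in lung, -0.11 ± 0.18 in liver, -0.14 ± 0.11 in stomach, -0.21 ± 0.03 in intestine, -0.22 ± 0.08 in esophagus and -0.40 ± 0.10 (n = 4) in pancreas. Every germ layer array lay above every organ array, since the lowest layer value was 0.15 and the highest organ value 0.12. Liver, stomach, intestine and esophagus overlapped with each other. Pancreas overlapped with liver, since liver 3 (-0.31) lay below pancreas 2 (-0.29). The lowest array was pancreas 3 (-0.52), which also had the fewest detected probes. The 14 mitosis members stood at 0.23 ± 0.01 in endoderm, 0.16 ± 0.03 in mesoderm and 0.14 ± 0.05 in ectoderm. Lung, stomach and liver stood at 0.04 ± 0.11, -0.01 ± 0.05 and -0.01 ± 0.17. Esophagus, pancreas and intestine stood at -0.13 ± 0.11, -0.27 ± 0.09 and -0.30 ± 0.07. For these members layers and organs overlapped. Ectoderm 3 (0.08) lay below lung 2 (0.10), lung 3 (0.11) and liver 2 (0.129), and mesoderm 3 (0.127) lay below liver 2. The same median over all 9652 genes stayed between -0.10 and 0.02 in the group means. These medians are descriptions and carry no test, and in bulk samples fewer cycling cells and less RNA per cell cannot be told apart.

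**Figure D2:**
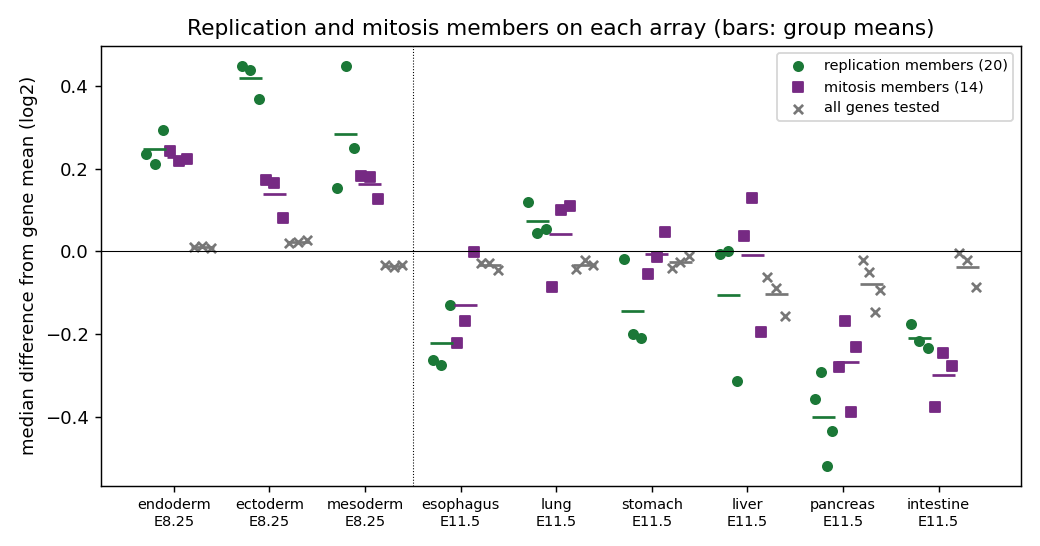
Median difference from the gene mean (log2) on each array for the 20 tested replication members, the 14 tested mitosis members and all 9652 genes tested, by group, with bars at group means. The replication medians of the germ layers lie above those of all organs, and pancreas is lowest at a mean of -0.40.

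The comparison of the 6 organs with E8.25 endoderm asked how these genes stood in endoderm before and after organ formation. Of the 43 members, 17 were lower in the organs and 4 were higher, against 25.4% and 20% of all genes tested. The members' median difference was -0.30, and that of all genes was -0.02. Of the 20 replication members 9 were lower and 2 higher, and of the 14 mitosis members 6 were lower and the others were not called. These counts rest on the brightest probe of each gene. For Birc5, not called by that probe, 2 of 3 detected probes were called higher, and the differences ran from 0.02 to 1.89. With the class as a block 19 members were lower and 4 higher (25.9% and 21.1% of all genes). The same counts came from the arrays over 20000 alone (25.8% and 20.8%), which include no liver array. All 21 calls held in each of the 22 fits that left out 1 endoderm or organ array.

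Of the 10 tested licensing and helicase genes, 6 were lower and Mcm3, Mcm7, Cdt1 and Gmnn were not called. Mcm5 read 12.55, 12.38 and 12.54 in endoderm and between 11.08 and 12.14 on the 19 organ arrays, lower by a log2 fold change of -0.83 ± 0.11 (adjusted p = 1.49e-06). Mcm10, which helps to start the helicase, read 11.06, 10.75 and 10.85 in endoderm and differed by -0.79 ± 0.10 (adjusted p = 4.76e-07). For both genes no organ array reached the endoderm arrays. Mcm4 (-0.84 ± 0.08), Mcm6 (-0.75 ± 0.19), Mcm2 (-0.68 ± 0.14) and Cdc6 (-0.60 ± 0.11), the loader of the helicase, were lower as well. Mcm2 overlapped between the groups, with pancreas 3 at 11.03 and intestine 3 at 10.77, and Mcm6 did with intestine 3 at 12.07. At the fork, Fen1, the flap endonuclease of lagging strands, and Pole, the catalytic subunit of polymerase epsilon, were lower by -0.63 ± 0.11 and -0.56 ± 0.10.

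Nucleotide enzymes divided. Rrm2, the regulated subunit of ribonucleotide reductase, was lower at -0.62 ± 0.09, whereas thymidylate synthase (Tyms) was higher at 1.36 ± 0.24 (adjusted p = 6.35e-05). Tyms read 9.70, 9.51 and 9.39 in endoderm and 10.18 to 11.62 on the organ arrays, with no overlap. These are values of its brightest probe. Of its 5 detected probes 2 were called higher, and the differences ran from -0.19 to 1.36. Thymidine kinase 1 (Tk1) was higher by 0.48 ± 0.11 (adjusted p = 0.00136). Among the cycle entry genes, cyclin E1 (Ccne1) had the largest fall of all members, -0.99 ± 0.10 (adjusted p = 5.27e-08), and E2f1, which switches on S phase genes, differed by -0.38 ± 0.09. Ccnd1 (cyclin D1) and Cdkn1a were higher by 0.63 ± 0.12 and 0.79 ± 0.17. Ccne1, Ccnd1 and Cdkn1a also differed between organs and overlapped with endoderm.

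In the mitotic group, the kinesin motor Kif11, which pushes spindle poles apart, read 9.82, 9.57 and 9.54 in endoderm and 8.52 to 9.18 in the organs (-0.79 ± 0.10, adjusted p = 5.86e-07). The phosphatase Cdc25c, an activator of Cdk1, was lower by -0.77 ± 0.11, the spindle pole kinase Aurka by -0.73 ± 0.10, the activator Cdc20 of the anaphase promoting complex by -0.50 ± 0.13, the checkpoint kinase Bub1b by -0.48 ± 0.10 and the centromeric histone Cenpa by -0.39 ± 0.08. Of these, Kif11, Cdc25c, Aurka and Cenpa had no organ array at or above an endoderm array. Cdk1 itself, at 0.14, and Plk1, at -0.43, did not pass the test.

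**Figure D3:**
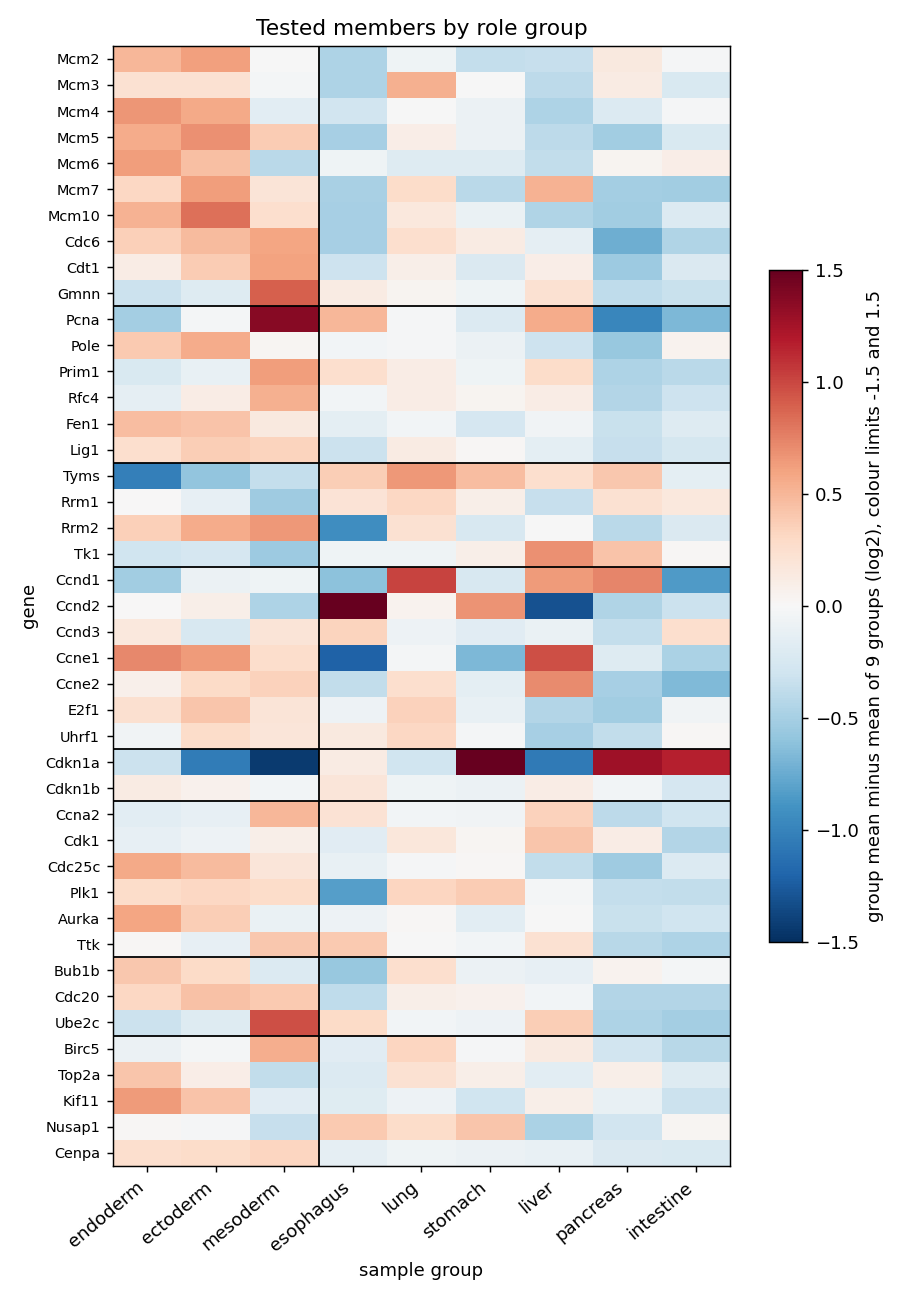
Group mean minus the mean of the 9 groups (log2, colour limits -1.5 and 1.5) for the 43 tested members, ordered by role, in the 3 germ layers (left of the line) and the 6 organs. Most helicase genes are redder in the layers, while Ccnd1, Ccnd2, Ccne1 and Cdkn1a have the widest range of organ means.

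The promoters of these genes were examined for the motifs by which replication and mitosis genes are classed. RefSeq promoters (GRCm38.p6, 250 bases before to 50 after the start) were at hand for 41 of the 53 members, 48 promoters in all. An E2F motif (TTTCCCGC, TTTCGCGC, TTTGCCGC or TTTGGCGC, either strand) was present in 39.1% of the promoters of replication members, 6.25% of those of mitosis members and 2.26% of all 32851 promoters. A CHR motif (TTTGAA, either strand) was present in 8.7%, 75% and 17.9%. A CCAAT box (CCAAT, either strand) was present in 56.5%, 87.5% and 37.4%. A match describes letters in the window and no binding. The 250 bases before the start are shown for the replication members and the mitosis members with the largest falls that have a single promoter in the table, 5′ to 3′ on the gene's strand, with the 3 motifs in capitals; E2F motifs on opposite strands can overlap, as in Mcm5 and Mcm6.
Mcm5, chr8:75109259-75109508, plus strand: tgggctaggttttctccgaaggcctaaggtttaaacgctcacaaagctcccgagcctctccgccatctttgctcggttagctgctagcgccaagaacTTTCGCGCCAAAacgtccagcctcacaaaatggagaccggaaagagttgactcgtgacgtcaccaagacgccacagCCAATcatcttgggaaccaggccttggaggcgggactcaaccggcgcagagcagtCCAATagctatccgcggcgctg
Mcm10, chr2:5012792-5013041, minus strand: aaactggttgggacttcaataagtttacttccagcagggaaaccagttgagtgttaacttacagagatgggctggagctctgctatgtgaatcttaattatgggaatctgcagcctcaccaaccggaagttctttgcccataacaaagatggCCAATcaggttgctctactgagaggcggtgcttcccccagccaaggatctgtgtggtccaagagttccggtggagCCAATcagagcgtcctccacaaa
Mcm6, chr1:128359706-128359955, minus strand: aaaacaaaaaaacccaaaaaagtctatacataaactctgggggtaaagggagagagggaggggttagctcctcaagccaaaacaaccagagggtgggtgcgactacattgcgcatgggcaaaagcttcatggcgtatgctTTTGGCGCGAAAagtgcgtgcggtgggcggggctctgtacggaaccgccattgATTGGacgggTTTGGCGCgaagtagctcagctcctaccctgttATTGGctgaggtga
Kif11, chr19:37376132-37376381, plus strand: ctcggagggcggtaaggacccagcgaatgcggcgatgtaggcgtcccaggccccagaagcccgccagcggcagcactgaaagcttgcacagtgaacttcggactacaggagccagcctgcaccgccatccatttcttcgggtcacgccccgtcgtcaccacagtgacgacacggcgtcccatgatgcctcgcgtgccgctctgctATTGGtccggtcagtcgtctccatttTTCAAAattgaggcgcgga
Aurka, chr2:172370571-172370820, minus strand: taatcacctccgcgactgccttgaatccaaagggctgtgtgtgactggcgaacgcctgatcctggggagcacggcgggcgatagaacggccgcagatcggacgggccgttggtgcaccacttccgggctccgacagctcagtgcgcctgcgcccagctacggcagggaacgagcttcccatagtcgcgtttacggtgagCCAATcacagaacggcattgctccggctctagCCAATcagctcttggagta
Cdc20, chr4:118437344-118437593, minus strand: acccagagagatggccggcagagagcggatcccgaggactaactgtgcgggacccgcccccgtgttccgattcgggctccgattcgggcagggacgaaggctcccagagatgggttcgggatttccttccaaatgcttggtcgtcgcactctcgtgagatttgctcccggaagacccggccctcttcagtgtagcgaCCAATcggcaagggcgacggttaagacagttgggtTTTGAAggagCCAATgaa
Mcm5 and Mcm6 carried E2F motifs and CCAAT boxes in this stretch, and Mcm10 and Aurka 2 CCAAT boxes each and neither of the other motifs. In the full window counted above, Aurka also had 1 CHR motif, outside the bases shown. In the bases shown, Kif11 carried 1 CHR motif and 1 CCAAT box, and Cdc20 carried 1 CHR motif and 2 CCAAT boxes.

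Among the germ layers at E8.25, 17 of 43 members differed by an F test over the 3 layers, against 37.4% of all genes. Against endoderm 7 members were higher and 11 lower in mesoderm (13.7% and 21.7% of all genes), and against ectoderm 3 were higher and 9 lower (9.46% and 16.9%). Both comparisons share the mesoderm arrays, and these shares of the members lie near those of all genes. Between endoderm and ectoderm 1 member was called higher in endoderm and 0 lower (6.04% and 4.07%), with 2 members higher and 2 lower at an unadjusted p under 0.05 in limma.

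Of the 11 members lower in mesoderm than in endoderm 3 were licensing and helicase genes. Mcm4 read 12.29, 12.30 and 12.16 in mesoderm, 13.04, 13.04 and 13.13 in endoderm and 13.14, 12.93 and 12.88 in ectoderm. It was lower by -0.82 ± 0.11 against endoderm (adjusted p = 2.46e-06) and by -0.73 ± 0.11 against ectoderm (adjusted p = 1.42e-05), a fall that 2 dim probes near background did not show. Kif11 read 8.77, 8.84 and 8.89 in mesoderm, below all arrays of the other layers, and differed by -0.81 ± 0.13 and -0.60 ± 0.13. Mcm6 differed by -1.03 ± 0.25 and -0.85 ± 0.25, the latter lost without ectoderm 1 or mesoderm 3 (adjusted p up to 0.0586). Of the 4 detected probes of Mcm6 2 were lower in mesoderm than in endoderm and 2 were not called, and with the mean of detected probes Mcm6 stood at -0.28 and -0.21 and was not called in either comparison (adjusted p = 0.298 and 0.484). Aurka (-0.69 and -0.47), Bub1b (-0.60 and -0.49), Pole (-0.37 and -0.53), Mcm2 (-0.50 and -0.63) and Ccne1 (-0.46 and -0.38) were lower in both comparisons. Against endoderm, Mcm2, Pole and the called members Cdc25c (-0.39) and Nusap1 (-0.37), a microtubule-bundling protein of the spindle, lost their calls in 4 or 5 of the 6 fits that left out 1 array (adjusted p up to 0.153), as did Ccne1 against ectoderm (up to 0.176). Ccne1 against endoderm lost its call without endoderm 3 (0.0577), and Mcm2 against ectoderm without mesoderm 1 (0.0649). Mcm10 was lower against ectoderm at -0.58 ± 0.13.

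With the class as a block, Mcm4, Mcm6, Kif11 and Aurka remained lower in mesoderm than in endoderm, at -0.71, -1.48, -0.90 and -0.53, and Bub1b (-0.30), Mcm2 (-0.43), Ccne1 (-0.52) and Cdc25c (-0.20) were not called (adjusted p from 0.0571 to 0.538). Against ectoderm Mcm2 (-0.56), Ccne1 (-0.45), Mcm10 (-0.35), Aurka (-0.31) and Bub1b (-0.19) were not called with the block (adjusted p from 0.114 to 0.491). The members higher in mesoderm behaved differently. Pcna read 9.99, 9.67 and 9.79 in mesoderm and 7.75, 7.89 and 8.18 in endoderm, a difference of 1.88 ± 0.55 (adjusted p = 0.0108). With the block it was -0.73 ± 0.30 (adjusted p = 0.0762). Ube2c (1.28 ± 0.32), Gmnn (1.23 ± 0.30), Prim1 (0.86 ± 0.31) and Rfc4 (0.68 ± 0.19) were called higher too, and stood at -0.04, 0.00, -0.46 and 0.01 with the block. On the endoderm arrays Gmnn was detected on 1 of 3 and Ube2c on 2 of 3. The Prim1 call was lost in 5 of 6 fits without 1 array (adjusted p up to 0.1). Ube2c and Gmnn were also called higher against ectoderm, at 1.16 and 1.10, and stood at -0.16 and -0.13 with the block.

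Birc5 was higher in mesoderm than in endoderm by 0.64 ± 0.23, and by 1.32 with the class as a block, though the call was lost in 5 of 6 fits without 1 array (adjusted p up to 0.131). Ccnd1 was higher by 0.45 ± 0.15 against endoderm and Ccnd3 (cyclin D3) by 0.43 ± 0.15 against ectoderm, each lost in 4 of 6 such fits (adjusted p up to 0.123 and 0.146). Cdkn1a was lower in mesoderm than in endoderm by -1.10 ± 0.23 (adjusted p = 0.000595), and by -1.73 with the block. It read 6.71, 6.94 and 6.74 in mesoderm, 7.17, 6.97 and 7.39 in ectoderm and 7.65, 8.31 and 7.73 in endoderm, the order of the layers without overlap. Its call between endoderm and ectoderm (0.73 ± 0.23, adjusted p = 0.0417) was lost with the replicate number as a block (adjusted p = 0.0575) and without endoderm 2, endoderm 3, ectoderm 1 or ectoderm 2 (up to 0.289). Red cell genes also moved with mesoderm: 6 of 7 erythroid markers were detected there and their summed intensity was 4033 to 28644, against 437 to 477 in endoderm, and Gata1 was not detected on any array. Their part in these results was not tested.

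Between the 6 organs, 26 of 43 members differed by an F test, against 64.8% of all genes. All 7 tested genes of G1 and S phase entry and both inhibitors differed, and 10 of 20 replication and 7 of 14 mitosis members. Ccnd2, Cdkn1a, Ccne1 and Ccnd1 spanned the widest ranges of organ means, and each had its own order of organs.

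Ccnd1 formed 2 levels. It read 12.96, 13.11 and 13.08 in lung, 12.88, 12.87, 12.73 and 12.57 in pancreas and 12.80, 12.80 and 12.41 in liver. It read 11.62, 11.80 and 11.93 in stomach, 11.18, 11.31 and 11.74 in esophagus and 11.19, 11.39 and 10.94 in intestine. These are values of its brightest probe. By this probe all arrays of the first 3 organs lay above all arrays of the others, lung lay above pancreas and liver, and the latter overlapped. On the dimmest of its 3 detected probes liver had the highest mean (10.72), with lung and pancreas at 10.52. Stomach, esophagus and intestine stood at 8.94, 8.91 and 8.42 on that probe. Against the mean of the other organs lung was higher by 1.09 ± 0.12 (2.13-fold, adjusted p = 1.79e-07), pancreas by 0.75 ± 0.11 and liver by 0.63 ± 0.12. Intestine was lower by -1.16 ± 0.12 (adjusted p = 6.51e-08), esophagus by -0.88 ± 0.12 and stomach by -0.43 ± 0.12, the last lost without stomach 1 or stomach 2 (adjusted p up to 0.11).

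Ccnd2 (cyclin D2) had another order. It read 13.34, 13.38 and 13.05 in esophagus, above every other array, and 10.25, 9.75 and 10.68 in liver. Esophagus was higher by 1.99 ± 0.28 (3.97-fold, adjusted p = 3.96e-06) and liver lower by -1.64 ± 0.28 (3.13-fold, adjusted p = 2.39e-05). Liver overlapped with pancreas, and pancreas and intestine were themselves divided: pancreas read 10.62, 10.35, 11.80 and 11.57, and intestine 10.88, 10.71 and 12.05. The esophagus arrays also had the most mesenchyme RNA among the organs, with 9 of 10 markers detected and a summed intensity of 8498 to 10079 against 718 to 2607 in the other organs, Dcn among them and Col1a2 undetected. Its part in the Ccnd2 level was not tested. Ccnd3 was higher in esophagus by 0.43 ± 0.11 and intestine by 0.33 ± 0.11, and lower in pancreas by -0.41 ± 0.10. Its intestine call was lost in 8 of 19 fits that left out 1 array (adjusted p up to 0.291) and with the class as a block (0.163). With the mean of its detected probes neither the esophagus nor the intestine call held.

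Ccne1 was highest in liver. It read 9.53, 9.39 and 9.70 there, 8.63, 8.52 and 8.49 in lung, 8.16 to 8.72 on the 4 pancreas arrays, 7.82, 8.10 and 8.36 in intestine, 7.91, 7.82 and 7.98 in stomach and 7.29, 7.40 and 7.37 in esophagus. Liver lay above and esophagus below all other organ arrays, and the organs between them overlapped with their neighbours. The difference was 1.49 ± 0.10 in liver (2.80-fold, adjusted p = 1.94e-11), -1.14 ± 0.10 in esophagus (2.20-fold, adjusted p = 5.62e-09) and -0.48 ± 0.10 in stomach. The lung call (0.29 ± 0.10, adjusted p = 0.0472) was lost in 15 of 19 fits without 1 array (up to 0.163). In endoderm at E8.25 the gene read 9.35, 9.11 and 9.41, which overlapped with liver and lay above all other organ arrays. Ccne2 (cyclin E2) was also higher in liver, by 0.99 ± 0.20 (adjusted p = 0.000181), and lower in intestine by -0.65 ± 0.20. The intestine call was lost without any one of its arrays (adjusted p up to 0.077).

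Cdkn1a ran against this order in liver. It read 9.88, 9.92 and 9.72 in stomach, 9.27 to 9.85 on the 4 pancreas arrays and 9.57, 9.25 and 9.35 in intestine, and pancreas overlapped with both of the others. Esophagus read 8.24, 8.45 and 8.35, and liver 7.19, 7.04 and 7.25, below every other organ array. Lung read 8.72, 7.48 and 7.58, with lung 1 above esophagus and the other arrays below it. Stomach was higher by 1.38 ± 0.18 (2.59-fold, adjusted p = 2.92e-06), pancreas by 0.97 ± 0.16 and intestine by 0.83 ± 0.18. Liver was lower by -1.84 ± 0.18 (3.58-fold, adjusted p = 3.93e-09) and lung by -0.92 ± 0.18. Stomach, pancreas and intestine stood above all endoderm arrays of E8.25 (7.65, 8.31 and 7.73), and liver below them. Cdkn1b read near background throughout, detected on 14 of 28 arrays. Its esophagus call (0.25 ± 0.08, at least 1.09-fold) was lost without any 1 of the esophagus arrays, and its intestine call (-0.27 ± 0.08) without intestine 2 or intestine 3, with adjusted p up to 0.0962 and 0.116. The latter was also lost with the class as a block. In intestine no bound on its fold could be given.

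**Figure D4:**
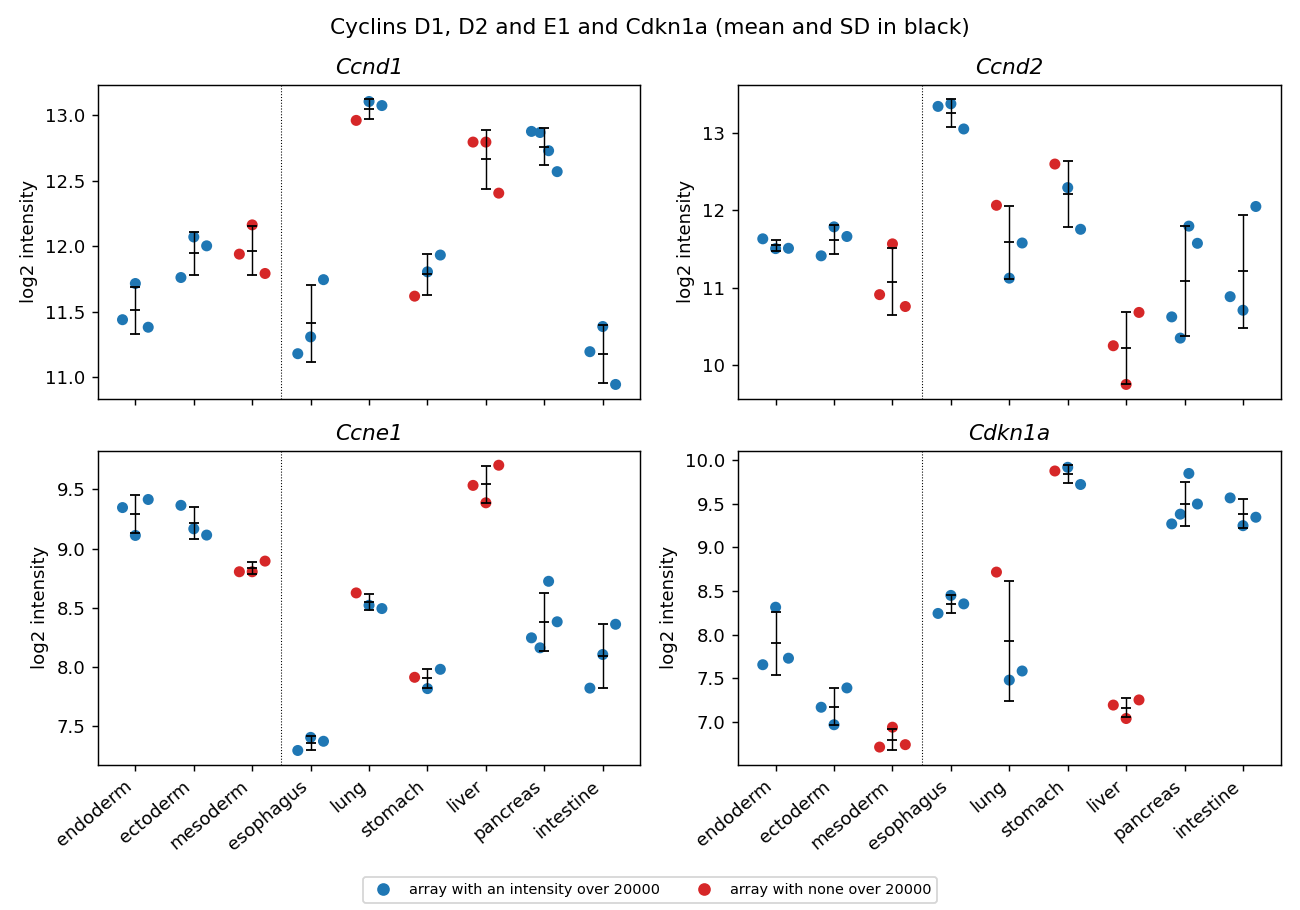
Log2 intensity of Ccnd1, Ccnd2, Ccne1 and Cdkn1a on each array by group, with group mean and SD in black; colour marks the intensity class. Liver is highest for Ccne1 and lowest among the organs for Ccnd2 and Cdkn1a, and esophagus is highest for Ccnd2 and lowest for Ccne1.

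In lung 10 members were higher than in the other organs and 1 was lower, against 9.93% and 12.7% of all genes, and 36 of 43 differences were above 0, with a median of 0.24 against 0.00 for all genes. Besides Ccnd1, the largest differences among the called members were Cdc6 (0.59 ± 0.11), Rrm2 (0.59 ± 0.09), E2f1 (0.58 ± 0.09, adjusted p = 2.3e-05), Plk1 (0.56 ± 0.20), the kinase of centrosomes and mitotic exit, Mcm10 (0.52 ± 0.10), Uhrf1 (0.46 ± 0.13), which carries DNA methylation through replication, and Mcm5 (0.45 ± 0.11). Bub1b was higher by 0.40 ± 0.10. Rrm2 read 9.36, 9.29 and 9.24 in lung and at most 9.16 in the other organs. E2f1 read 9.69, 9.83 and 9.70, above every other organ array. Plk1 lost its call in 10 of 19 fits without 1 array (adjusted p up to 0.314), and Uhrf1 and Bub1b lost theirs without lung 2 (0.0561 and 0.0718). With the class block 14 members were higher (11.9% of all genes), and 12 in the arrays over 20000 (7.79%), which leave out liver.

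Pancreas showed the opposite balance, with 12 members lower and 4 higher (17.9% and 13.5% of all genes) and a median of -0.26 against -0.05 for all genes. Cdc6 read at most 9.10 on the 4 arrays, below every other organ array, and was lower by -0.59 ± 0.10 (adjusted p = 3.08e-05). Pole (-0.49 ± 0.09), E2f1 (-0.46 ± 0.08), Nusap1 (-0.42 ± 0.08), Ccnd3 and Cdc25c (-0.40 ± 0.10) were lower in all 19 fits that left out 1 array. Cdt1 (-0.43), Rfc4 (-0.42), Uhrf1 (-0.36) and Mcm5 (-0.30) lost their calls without pancreas 3 or pancreas 4, and Mcm10 (-0.30) without pancreas 3. Same-numbered pancreas and intestine arrays deviated together (correlations from 0.56 to 0.667), and with the replicate number as a block Cdt1, Mcm5, Uhrf1, Tk1 and Pcna were not called in pancreas (adjusted p = 0.0966, 0.0972, 0.0642, 0.0691 and 0.0603). Among the higher members Mcm2 (0.39) and Tk1 (0.30) lost theirs without either of these arrays, with adjusted p up to 0.207 over these members. Pcna was called lower at -1.01 ± 0.38, lost in 12 of the 19 fits (adjusted p up to 0.108), and stood at -0.14 with the class as a block. Rfc4 stood at -0.20 with that block (adjusted p = 0.194), and Cdt1, Uhrf1, Mcm2 and Tk1 were not called with it either (adjusted p from 0.0514 to 0.14). With the 2 arrays of low signal, pancreas 3 and intestine 3, left out, the calls of Cdt1, Rfc4, Uhrf1, Mcm10, Mcm5, Pcna and Tk1 were absent.

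In liver 8 members were higher and 7 lower (21.7% and 30.7% of all genes). The cyclins E and Ccnd1 were accompanied by Tk1 (0.61 ± 0.11, adjusted p = 9.34e-05), which read 10.30, 10.60 and 10.89, by Mcm7 (0.85 ± 0.30), by Cdk1 (0.47 ± 0.19), the main mitotic kinase, by Rrm2 (0.31) and by Kif11 (0.29). Mcm7 and Cdk1 were not called without liver 3 (adjusted p = 0.22 and up to 0.557), Rrm2 not without liver 2 and Kif11 not without liver 1 or liver 2. The 2 detected probes of Rrm2 differed in sign in liver (-0.12 and 0.31), and its call was lost with the mean of detected probes. Lower were Cdkn1a, Ccnd2, Nusap1 (-0.64 ± 0.09, adjusted p = 4.22e-06), Rrm1 (-0.54 ± 0.17), the large subunit of ribonucleotide reductase, Uhrf1 (-0.51 ± 0.13), E2f1 (-0.36 ± 0.09) and Mcm4 (-0.34 ± 0.08). Rrm1 was not called without liver 2 (adjusted p = 0.114). Under the class block E2f1, Mcm4, Rrm2, Kif11 and Cdk1 were not called. The liver arrays carried more blood cell RNA than most organs: 5 or 6 of 7 erythroid markers were detected, with a summed intensity of 2479 to 11775 against 809 to 2264 in esophagus, lung, stomach and pancreas and 7042 to 15893 in intestine. Leukocyte markers summed to 1065 to 1360 in liver, with Lyz2 on all 3 arrays and Ptprc on none, and to at most 370 in the other organs. Summed epithelial markers were 4170 to 5324 in liver and at least 14123 in the other organs. The part of these cells in the liver results was not tested.

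Esophagus had 4 members higher and 8 lower (18.2% and 17% of all genes). Rrm2 read 8.05, 8.16 and 8.20, below all other organ arrays (-0.80 ± 0.09, adjusted p = 2.63e-07), and Bub1b 8.38, 8.45 and 8.58 (-0.58 ± 0.10). Plk1 was lower by -0.82 ± 0.20, lost without esophagus 3 (adjusted p = 0.0526). Nusap1 was higher by 0.41 ± 0.09. Mcm10 (-0.28) and Cdc6 (-0.31) lost their calls without esophagus 1 or esophagus 2, Cdc6 also with the class as a block (-0.16, adjusted p = 0.163), and Tk1 (-0.30) in 10 of 19 fits (adjusted p up to 0.313). With the arrays of the low class set aside, no liver array was left, and esophagus was compared with lung, stomach, pancreas and intestine. In that fit 10 members were higher and 10 lower (21.7% and 19.4% of all genes). Liver, absent from it, had the highest organ mean of Pcna, 9.01. Pcna, which read 8.75, 9.15 and 8.96 in esophagus, was in that fit higher by 1.40 ± 0.11 (adjusted p = 1.55e-08). Ube2c, Prim1 and Gmnn were then called higher too, though their probes were not detected on every array of the other organs.

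Stomach and intestine had fewer calls. In stomach 4 members were higher and 2 lower, against 8.8% of all genes in either direction. Beside Cdkn1a, Plk1 (0.63 ± 0.20), Cdc6 (0.43 ± 0.11) and Nusap1 (0.43 ± 0.09) were higher. Plk1 was not called without stomach 2 or stomach 3 (adjusted p up to 0.202), and Cdc6 not without stomach 1 (0.0916). In intestine 2 members were higher and 4 lower (12.2% and 10.1%). Cdk1, which read 9.65, 9.85 and 10.11 there, was lower by -0.54 ± 0.19, a call lost in 4 of 19 fits (adjusted p up to 0.197) and with the class as a block. The intestine median was -0.19 against -0.01 for all genes, with 13 of 43 differences above 0.

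Several probes of a gene did not always tell the same story. Of the members 16 had 2 or more detected probes, 74 detected member probes in all, and over 160 pairs of gene and comparison the probes differed in their calls in 45. Those were pairs of Birc5, Ccnd1, Ccnd3, Cdc20, Cdc6, Cdkn1a, Lig1, Mcm10, Mcm4, Mcm6, Nusap1, Rfc4, Rrm2, Tk1 and Tyms. There were 3 pairs in which probes were called in opposite directions. For Mcm4 in mesoderm against endoderm the brightest probe was lower by -0.82 and a dim probe, detected on 0 of 3 endoderm and 2 of 3 mesoderm arrays, was called higher (adjusted p = 0.045). For Cdc20 in the organs against endoderm 3 probes were lower, by -0.50, -0.63 and -0.68, and 1 was higher by 0.83 ± 0.31 (adjusted p = 0.031). With the mean of detected probes the calls of Mcm4 and Cdc20 in the organs against endoderm were lost (-0.013 and -0.24, adjusted p = 0.948 and 0.2). The higher Cdc20 probe was also higher in mesoderm than in endoderm, by 1.13, while another was lower by -0.48. The 3 probes of Cdkn1a correlated at 0.94 to 0.97 over the 28 arrays, those of Ccnd1 at 0.76 to 0.99, those of Ccnd3 at 0.06 to 0.21, and those of Mcm4 at -0.40 to 0.94.

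**Figure D5:**
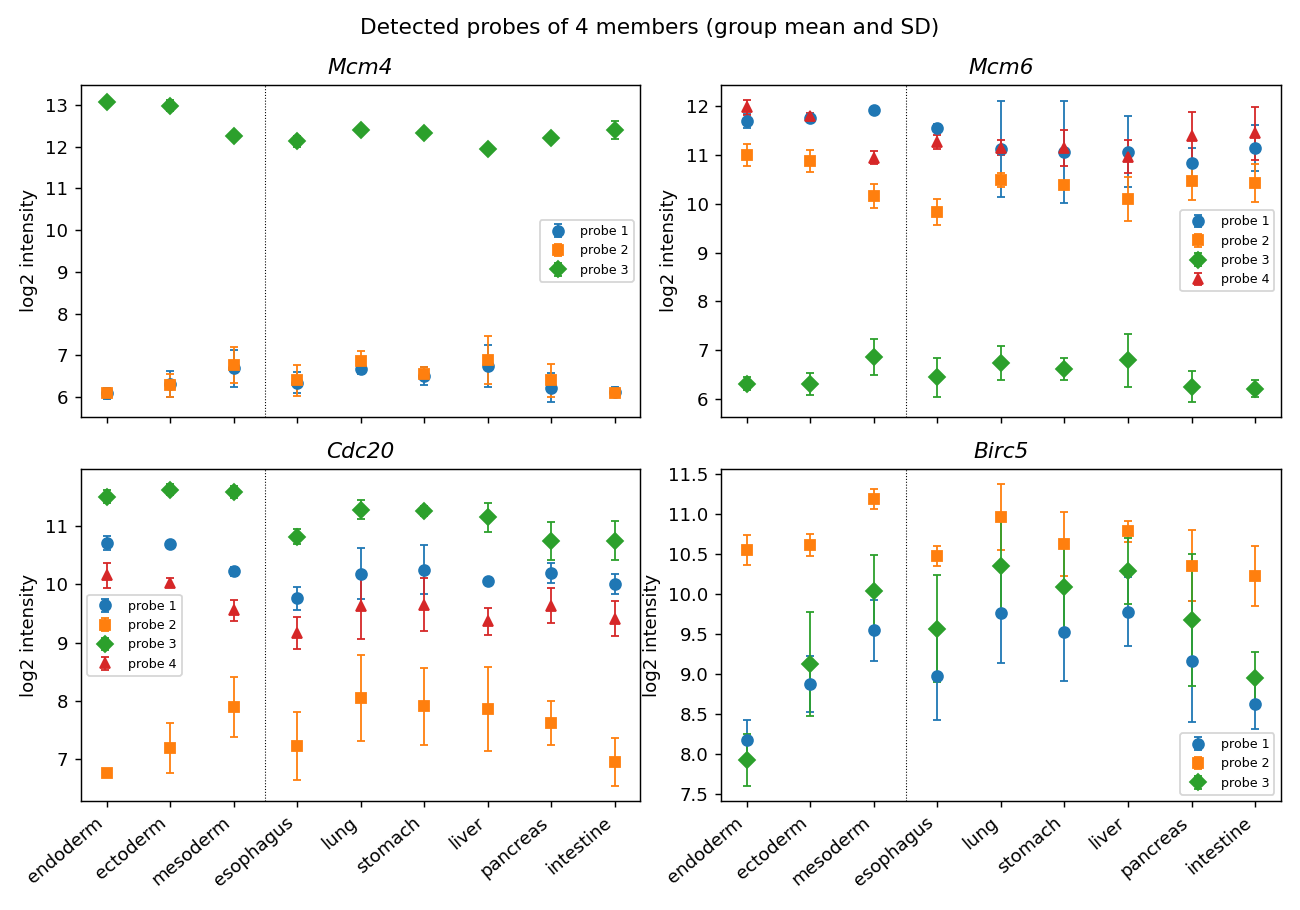
Group mean and SD (log2 intensity) of each detected probe of Mcm4, Mcm6, Cdc20 and Birc5. The bright Mcm4 probe is highest in endoderm and ectoderm, while the dim probes lie near background and are lowest in endoderm and intestine.

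Other genes of the same processes were followed as lists. Of 28 further replication genes tested, 14 were called in the organs against E8.25 endoderm and all 14 were lower, among them the polymerase alpha partner Wdhd1 (-0.89), the dUTPase Dut (-0.87) and Dbf4 (-0.70), the activator of the Cdc7 kinase. Of 33 further mitosis genes 18 were lower and 2 higher, among them Kif23 and Ndc80 (both -0.88) and Kif2c (-0.74), with Cep55 (0.76) and Pbk (0.39) higher. Of 21 further cycle regulators 3 were lower, Cdc25a (-0.95), E2f5 (-0.56) and E2f3 (-0.54), and 5 higher, led by the antiproliferative genes Btg1 (0.94) and Tob1 (0.70) and the CDK inhibitor Cdkn1c (0.67). For organs against endoderm 25.4% of all genes were lower and 20% higher, and of the 43 members 17 were lower and 4 higher. In lung 10 of the replication genes and 10 of the mitosis genes were called, all of them higher, led by Chaf1b (0.72) and Mad2l1 (0.84), against 9.93% of all genes higher. In pancreas 6 and 13 were called, all of them lower, led by Gins3 (-0.50) and Aspm (-0.79), against 17.9% of all genes lower. In mesoderm against endoderm 8 of the replication genes were called, all of them lower, Wdhd1 (-0.97) and Dbf4 (-0.85) first, and 12 of the mitosis genes were lower and 5 higher, against 21.7% and 13.7% of all genes. In esophagus Btg1 (1.56), Rb1 (1.10) and Ccng2 (1.01) were higher, and in liver Btg1 (-1.65) and Ccng2 (-1.03) were lower.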

How the data were processed

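The values used are the probe intensities deposited in the series matrix (25697 probes, 28 arrays). The submitters' processing notes name BeadStudio, and the sources used here do not say how background and scale were set. A further deposited table with 112 columns carries array identifiers that no label gives and was not used. The intensities were corrected with normexp (offset 50), quantile normalized and taken to log2. A probe was detected above the 99th percentile of 1362 sensory receptor probes on that array. The brightest probe stood for a gene, and 9652 genes detected on every array of a group were tested with limma 3.58.1 (R 4.3.3): 9 group means, eBayes, Benjamini-Hochberg adjustment within each of 10 comparisons and 2 F tests. The recovery of known changes was tested on simulated data. Members, lists and tests were chosen with earlier results of these data known. Any member could be named; of other genes, those of largest size called in each list. Samples are labelled as biological replicates, and replicate numbers do not state a pairing. By the deviations of same-numbered arrays (every r over 0.1) the numbers paired ectoderm with mesoderm (lowest 0.264) and with endoderm (0.325), but not mesoderm with endoderm (0.0801); among organs 5 of 15 pairs passed. Alternatives changed background correction, scaling, filter, probe rule, samples, array weights, class block, replicate block, fold and single arrays.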

Additional observations from a re-analysis of the deposited data

Results flagged for a closer look

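Among the 43 members in pancreas, the only group of 4 arrays, 1 had a value far from the others. Ttk read 6.559 on pancreas replicate 4 and 6.314 to 6.339 on the other 3 arrays, a gap of 0.896 of the group's range. Chance passes the threshold used in about 1 in 20 groups, and 43 members were checked, so 1 such value is no more than chance gives. Ttk was not called in pancreas.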

How the results depend on the processing

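Counts of called members moved by over 1.5 times as follows. In order of mesoderm against endoderm, mesoderm against ectoderm, endoderm against ectoderm, esophagus, lung, stomach, liver and intestine, array weights gave 30, 28, 7, 31, 31, 20, 34 and 20 calls, and 33 and 42 in the F tests over layers and organs. Calls over all genes rose with the weights as well, to between 13.7% higher and 13.9% lower (endoderm against ectoderm) and 30.1% and 39.4% (liver). These weights were estimated gene by gene and ran from 0.111 to 3.9, since the likelihood estimate reached 22.5 for 1 array and was not used. Fits of only the groups compared gave 25 in mesoderm against ectoderm, where 17.7% of all genes were higher and 27.6% lower. They gave 6 in endoderm against ectoderm (10.9% and 9.98%), 9 in pancreas (11.4% and 14%), 3 in intestine (10.2% and 7.29%) and 31 over layers. A 2-fold minimum left 5, 2, 0, 2, 1, 1, 3 and 1 in the same order, 1 in organs against endoderm and 1 in pancreas. Over all genes that minimum left at most 6.65% higher and 6.81% lower, both in liver. With the class as a block 11 were called in mesoderm against endoderm (10.2% higher and 15.4% lower over all genes) and 19 in esophagus (23.1% and 21.4%). The fits of arrays over 20000 were added after seeing the data and hold no liver array. They gave 20 in esophagus (21.7% and 19.4% of all genes) and 2 in endoderm against ectoderm (6.63% and 4.65%). Endoderm against ectoderm had 0 calls without the filter on dim probes, with the mean of detected probes and with the replicate block, under which Cdkn1a had an adjusted p of 0.0575. The block moved no other count by over 1.5 times, and 7 of 118 calls lost significance with it.

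Without 1 array each, the counts ran from 11 to 16 in mesoderm against endoderm, 9 to 11 in mesoderm against ectoderm, 0 to 1 in endoderm against ectoderm, 21 to 22 in organs against endoderm, 8 to 17 in esophagus, 8 to 14 in lung, 4 to 7 in stomach, 12 to 21 in liver, 11 to 20 in pancreas, 3 to 8 in intestine, 10 to 16 over layers and 22 to 31 over organs. Of single genes' calls 1754 held in such fits, 148 were lost and none changed sign. With the class as a block 5 changed sign: in mesoderm against endoderm Pcna (-0.73), Prim1 (-0.46) and Ube2c (-0.037), and against ectoderm Ube2c (-0.16) and Gmnn (-0.13). With the mean of detected probes 4 did: Mcm4 in mesoderm against endoderm (0.16) and ectoderm (0.048) and in liver (0.15), and Ccnd3 in intestine (-0.012). For these the cause was not tested. Members near background, such as Gmnn, Ccna2 and Cdkn1b, were detected on 14 of 28 arrays each, which limits their differences.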
